A study of Homo sapiens with 21 samples.

Results

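The interaction of calcium with diethylstilbestrol (DES) in MDA-MB-453 cells, a human breast cancer cell line, is the effect of calcium in cells given DES minus its effect in cells not given DES. It was measured for the 14775 of 58735 genes whose mean FPKM (fragments scaled to gene length and library size) was at least 0.5 over the 12 libraries that enter it, of 21 in the series. The libraries form 4 groups of 3, all labelled WT and made from poly-A RNA: untreated control, calcium at 10 mM for 24 h, DES at 10 μM for 24 h, and 10 μM DES followed after 3 h by 10 mM calcium for 24 h. All cells were first kept in phenol red-free medium with charcoal-stripped serum. Calcium was then given in medium without serum, and the medium of the untreated cells at that step is not stated, so calcium and the change of medium cannot be told apart. DES was dissolved in ethanol, and DES, its solvent and, in the combined treatment, the longer time with DES cannot be told apart. The labels do not say whether the libraries of a group came from separate cultures, so p-values measure the spread between these libraries, which may be technical.

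DES is a synthetic estrogen that also binds the estrogen-related receptors and lowers their activity, and the study used it as an inhibitor of estrogen-related receptor beta (ESRRB). A rise in calcium within a cell acts through calmodulin and kinases on immediate early genes such as FOS and JUN, which encode transcription factors that act on later genes. Extracellular calcium also acts at the cell surface, on the calcium-sensing receptor and on cadherins. The genes of DNA replication are under the control of E2F factors and are low in cells that have left the cycle.

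Fragments on genes numbered 15246217 to 28424805 per library. All 15 luminal markers used to check the cell line passed the filter, against 1 of 7 basal (KRT17), 1 of 6 fibroblast (COL1A1), 0 of 8 immune and 0 of 5 endothelial markers. ESRRB itself lay below the filter, with 0 to 12 fragments in a library, as did the estrogen receptor gene ESR1 with 0 to 7. DES replicate 3 stood apart in the number of genes with a fragment, 35112 against 17478 to 24859 in the other libraries. Mitochondrial genes held 7.70% to 8.19% of fragments in the control, 4.88% to 7.55% with calcium, 3.47% to 4.96% with DES and 4.34% to 5.17% with DES and calcium, and their part in the results was not tested.

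Treatment with calcium changed 1380 genes in cells without DES, 9.34% of those tested (limma on log2(FPKM + 0.1), Benjamini-Hochberg adjusted p under 0.05, two-sided), of which 848 rose (5.74%) and 532 fell (3.6%). With scaling by total fragments on genes instead, 684 rose and 780 fell, so the balance of rises and falls depends on the scaling. In cells with DES, calcium changed 156 genes (1.06%), of which 22 rose (0.149%) and 134 fell (0.907%). The interaction was called for 552 genes (3.74%). In 187 of them (1.27%) the effect of calcium was higher with DES, and in 365 (2.47%) it was lower. At an unadjusted p under 0.05 the interaction counted 2955 genes (20%). The contrasts share their libraries, so these counts are not independent of each other. The median interaction over all genes tested was -0.03 on the log2 scale.

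A response to calcium was classed as lost where calcium changed the gene without DES, the interaction was called in the opposite direction, and the effect with DES was not called and was under 0.5 times the effect without DES. It was classed as kept where calcium changed the gene the same way in both settings, and as reversed where it changed it in opposite ways. Of the 1380 genes, 442 had a called interaction; 358 responses were lost, 9 kept and 4 reversed. In 77 more the interaction was called and the effect with DES was opposite and at least 0.5 times in size without being called itself. For 938 of the 1380 the interaction was not called, which does not show that calcium acted alike with and without DES. Over the 1380 genes the median ratio of the effect with DES to the effect without was 0.0548.

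These counts moved with single libraries. The 552 interactions were 182 without control replicate 1, 167 without control replicate 2, 275 without calcium replicate 1, 263 without calcium replicate 2, 197 without DES replicate 2, 251 without DES replicate 3, 246 without DES and calcium replicate 1, 345 without DES and calcium replicate 3, and 830 without DES replicate 1. The 1380 calcium responses without DES were 736 without control replicate 1, 699 without control replicate 2 and 843 without calcium replicate 2. The 156 responses with DES were 35, 50 and 97 without control replicates 1, 2 and 3, then 565, 8 and 9 without DES replicates 1, 2 and 3, and 66, 22 and 95 without DES and calcium replicates 1, 2 and 3. In 133 of the 552 genes the interaction was called in all 12 fits with one library left out, and in 3 it was called in none of them.

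**Figure D1:**
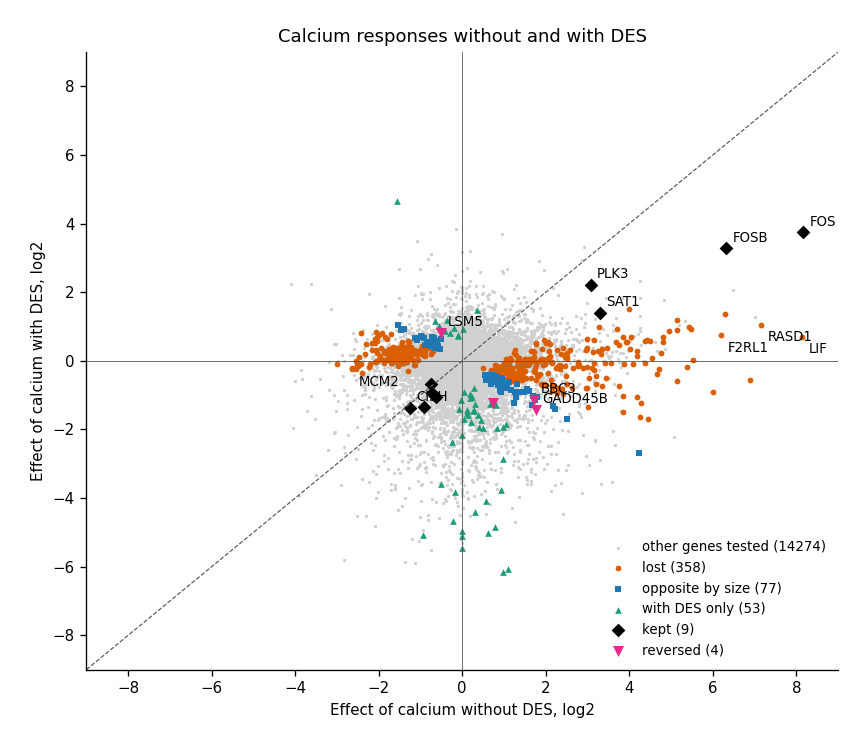
Effect of calcium without DES (horizontal axis, log2) against its effect with DES (vertical axis, log2), each point a gene tested, colours and shapes giving the class and the dashed line marking equal effects. The 358 lost responses spread along the horizontal line at 0, while FOS, FOSB, PLK3 and SAT1 lie above it at the right.

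The lost responses were 217 rises and 141 falls. The median gene among the rises stood at 3.21 FPKM in untreated cells, 13.4 with calcium, 6.09 with DES and 6.04 with DES and calcium. Among the falls the medians were 13.6, 4.71, 12.3 and 14.4 in the same order of groups, an order kept in all lists of 4 means below. The annotation in the table gave a transcription factor family to 24 of the 217 rises (11.1%), to 6 of the 141 falls (4.26%) and to 911 of all genes tested (6.17%). With one library left out, the 358 lost responses were 132 and 112 without control replicates 1 and 2, 189 and 166 without calcium replicates 1 and 2, 128 and 178 without DES replicates 2 and 3, and 146 and 190 without DES and calcium replicates 1 and 3. In the same order the 217 rises were 101 and 80, 132 and 108, 95 and 115, and 104 and 127. The 141 falls were 31 and 32, 57 and 58, 33 and 63, and 42 and 63. In one fit over all 21 libraries 104 rises and 10 falls were lost.

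The promoters of 4 lost responses are shown because they hold the motifs counted next. Sequences are from RefSeq on GRCh38.p14, from 250 bases before to 50 after a start, 5′ to 3′ on the strand of the gene, and the first listed window of each gene was used. Capitals mark a motif on either strand: the cAMP response element (TGACGTCA) in DUSP1, which encodes a phosphatase of MAP kinases, an NF-kB motif (GGG-NN-TTTCC) at 2 places in TNFAIP3, which encodes an inhibitor of NF-kB signalling, and an E2F motif (TTTCCCGC or TTTGGCGC) in the replication licensing genes CDT1 and CDC6. The window of DUSP1 is chr5:172771146-172771445 on the minus strand. On the plus strand, that of TNFAIP3 is chr6:137867009-137867308, that of CDT1 is chr16:88803539-88803838 and that of CDC6 is chr17:40287629-40287928.
DUSP1: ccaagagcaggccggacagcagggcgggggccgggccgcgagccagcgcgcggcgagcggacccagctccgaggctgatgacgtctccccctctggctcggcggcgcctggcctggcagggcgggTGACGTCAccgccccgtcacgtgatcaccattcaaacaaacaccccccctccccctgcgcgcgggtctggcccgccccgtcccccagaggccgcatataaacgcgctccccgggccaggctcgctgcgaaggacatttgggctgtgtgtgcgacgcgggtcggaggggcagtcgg
TNFAIP3: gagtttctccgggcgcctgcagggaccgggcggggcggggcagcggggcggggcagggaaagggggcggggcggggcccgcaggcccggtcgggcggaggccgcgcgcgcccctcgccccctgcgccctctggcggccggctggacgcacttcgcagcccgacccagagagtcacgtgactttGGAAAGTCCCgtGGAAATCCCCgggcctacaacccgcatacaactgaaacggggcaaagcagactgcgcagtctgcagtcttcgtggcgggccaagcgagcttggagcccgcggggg
CDT1: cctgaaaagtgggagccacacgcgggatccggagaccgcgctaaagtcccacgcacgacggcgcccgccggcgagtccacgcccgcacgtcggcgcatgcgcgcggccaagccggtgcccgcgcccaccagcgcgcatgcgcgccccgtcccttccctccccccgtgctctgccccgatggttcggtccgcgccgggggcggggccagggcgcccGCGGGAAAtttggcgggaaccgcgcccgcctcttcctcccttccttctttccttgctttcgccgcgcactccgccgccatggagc
CDC6: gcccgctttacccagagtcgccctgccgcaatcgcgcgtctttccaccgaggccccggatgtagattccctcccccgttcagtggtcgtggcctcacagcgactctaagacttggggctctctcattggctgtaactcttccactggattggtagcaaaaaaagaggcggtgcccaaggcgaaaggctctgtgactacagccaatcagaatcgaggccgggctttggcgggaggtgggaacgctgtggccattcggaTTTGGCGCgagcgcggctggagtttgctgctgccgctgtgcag

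A window was found for 154 of the 217 lost rises, 103 of the 141 lost falls and 9117 of all genes tested. The E2F form TTTCCCGC was in 11.7% of the windows of lost falls, 1.95% of those of lost rises and 2.76% of all. The form TTTGGCGC was in 9.71%, 1.95% and 1.18%. Among lost rises, 8.44% of windows held the AP-1 motif (TGANTCA), 6.49% the cAMP response element and 6.49% the NF-kB motif, against 4.51%, 3.42% and 2.12% of all windows and 4.85%, 4.85% and 0.971% of those of lost falls. The CArG box of serum response factor was in 3.25% of lost rises and 0.899% of all windows. The element of the estrogen-related receptors (TNAAGGTCA) was in 3 of the 154 lost rises, 1 of the 103 lost falls and 41 of the 9117. Both strands were searched, each motif was counted by itself and sites of different motifs may share bases. These shares describe letters in short windows and were not tested.

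The largest lost rise was that of LIF (chr22:30240447-30246851, minus strand), a cytokine of the interleukin-6 family. In FPKM it had 0.148, 0.0477 and 0.198 in the 3 control libraries and 50.4, 123 and 39.2 with calcium. With DES it had 0.434, 0.202 and 1.67, and with DES and calcium 1.24, 0.734 and 0.998. The calcium libraries stood far above the control, while the groups with DES overlapped. The effect of calcium on the log2 scale was 8.14 ± 0.60 without DES and 0.70 ± 0.60 with DES (estimate ± SE, n = 3 in each group), and the interaction was -7.44 ± 0.85 (limma, adjusted p = 0.0025). AC004264.1 shares 647 bases with LIF on the opposite strand, and had 0, 0 and 0 fragments in the control, 181, 360 and 109 with calcium, 0, 0 and 8 with DES and 0, 2 and 0 with both. The strand setting of the libraries is stated in more than 1 way, so reads of these genes cannot be told apart.

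Other secreted factors and receptors were lost rises too. Of 26 listed cytokines and growth factors 15 passed the filter on low values, which favours genes that are high in the calcium libraries, so no count over the list is read. Those with a called interaction, all lower with DES, were LIF, AREG, PTHLH and ADM. AREG, a ligand of the EGF receptor, had an FPKM of 0.404 to 0.661 in the control, 9.57 to 67.9 with calcium, 2.15 to 8.83 with DES and 2.73 to 4.12 with both (interaction -5.57 ± 0.88, limma, adjusted p = 0.0091). PTHLH, a secreted relative of parathyroid hormone, had means of 0.481, 4.27, 2.77 and 1.56. F2RL1, a protease-activated receptor, had 0.282, 0.336 and 0.286 in the control, 25.1, 27.6 and 36 with calcium, 0.0897, 0.253 and 0.837 with DES and 0.396, 1.09 and 0.395 with both. Only its calcium libraries were high, and the interaction of -5.45 ± 0.73 (limma, adjusted p = 0.0042) was called in 12 of 12 fits with one library left out.

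RASD1, a small GTPase of the Ras family, had an FPKM of 0.442, 0.298 and 0.554 in the control, 54.2, 179 and 41 with calcium, 3.36, 1.28 and 2.24 with DES and 3.07, 5.74 and 5.31 with both. The groups with DES overlapped, and the effect of calcium was 7.14 ± 0.50 without and 1.05 ± 0.50 with DES (interaction -6.09 ± 0.71, limma, adjusted p = 0.0025). GEM, a small GTPase that inhibits calcium channels, had 2 or 3 fragments in each control library, so its fitted fold depends on the pseudocount and is no bound. In FPKM it had 4.97 to 21 with calcium, 2.06 to 4.7 with DES and 6.79 to 7.6 with both, and the last stood above DES alone in all libraries although the effect with DES was not called (1.37 ± 0.45, limma, adjusted p = 0.16). RCAN1, an inhibitor of calcineurin that calcineurin itself induces, had means of 3.12, 10.9, 2.28 and 2.27 and an interaction called in 6 of 12 fits with one library left out. TRIB1, a pseudokinase scaffold of protein degradation, had means of 5.38, 72.9, 10.8 and 21.7. Its libraries with both (14.1 to 28) also lay above those with DES alone (10.6 to 11), without a called effect. Of 23 listed genes responsive to calcium and cAMP 15 were tested. Among these, 5 rose (5.74% of all genes tested) and 1 fell (3.6%) with calcium without DES. With DES 0 were called (1.06%), and 5 had a called interaction, all lower (2.47%). The filter on low values favours genes that are high in the calcium libraries, so these counts are only a description.

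**Figure D2:**
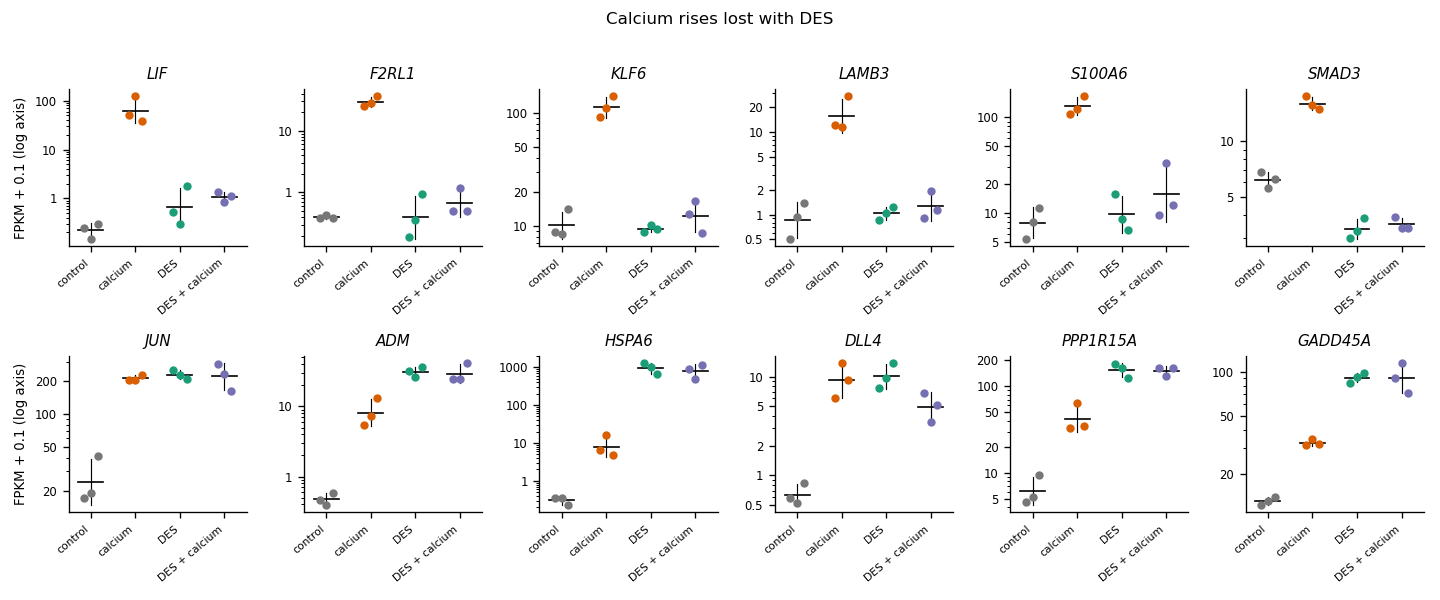
FPKM + 0.1 on a log axis for 12 lost rises, each point a library, each bar the mean of the logarithms and each vertical line 1 SD either side (n = 3). In the upper row only the 3 calcium libraries are high, and in the lower row the control is low and the libraries with DES lie in the range of the calcium libraries or above it, except 2 of the DES and calcium libraries of DLL4 and 1 of JUN, which lie below.

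The lost rises differed in their level with DES alone. In 90 of the 217 (41.5%) the effect of DES alone was under 0.25 times that of calcium alone, in 69 (31.8%) it was between 0.25 and 0.75 times, and in 58 (26.7%) it was at least 0.75 times. This split was chosen after the values were seen and uses the same libraries, so it is a description. In the first 90 genes the medians in FPKM were 4.17 in the control, 14.7 with calcium, 3.67 with DES and 3.43 with both. In the last 58 it was 3.5, 10.0, 15 and 13.7, and all 58 were also called higher with DES alone, as were 17.7% of all genes tested. DES with calcium was called below calcium alone in all of the first 90 (20.1% of all genes tested), and in the last 58 it was called below in 4 and above in 18 (21.6% of all genes tested). The classes and the split were set on these same values, so nothing is read from these counts.

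KLF6, a zinc finger transcription factor, was among the first kind. In FPKM it had 8.7, 8.32 and 13.8 in the control, 91.2, 109.7 and 141 with calcium, 8.74, 10.01 and 9.25 with DES and 12.6, 16.5 and 8.45 with both. Only the calcium libraries were high (interaction -3.10 ± 0.37, limma, adjusted p = 0.0029). SMAD3, which carries TGF-beta signals to the nucleus, had 6.7, 5.45 and 6.17, then 17.4, 15.6 and 14.8, then 2.9, 3.17 and 3.74, then 3.79, 3.27 and 3.28, so that both groups with DES lay below the control. The laminin chain LAMB3, of the basement membrane, had means of 0.843, 17, 0.951 and 1.23. S100A6, a calcium-binding protein, had means of 8.17, 132, 10.3 and 18.3. The glycolytic enzyme PFKP had 27.9, 89.3, 25.5 and 31.6, with an interaction called in 6 of 12 fits with one library left out.

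JUN, a subunit of AP-1, was among the other kind. In FPKM it had 17, 19.1 and 41.7 in the control, 203, 204 and 229.5 with calcium, 254, 229.5 and 209 with DES and 286, 234 and 164 with both. The control alone was low. Calcium raised it by 3.15 ± 0.30 without DES, its effect with DES was -0.05 ± 0.30, and the interaction was -3.20 ± 0.43 (limma, adjusted p = 0.0042). ADM, a vasodilator peptide, had 0.296 to 0.49 in the control, 5.42 to 13 with calcium, 26 to 36.1 with DES and 24.1 to 41.8 with both. DLL4, a Notch ligand, had 0.418 to 0.737, 5.95 to 13.7, 7.51 to 13.6 and 3.4 to 6.66, and with both it lay below DES alone. ADM and DLL4 are among the genes that the study listed as higher with calcium, cadmium and the ESRRB agonist GSK4716. Of 39 genes of that list used here, fewer than the study counts, 32 were tested. Of these 27 rose with calcium without DES (5.74% of all genes tested), 0 were called with DES (1.06%) and 12 had a called interaction, all lower (2.47%). Of 37 on the list of lower genes 36 were tested. Of these 27 fell with calcium without DES (3.6% of all genes tested), 0 were called with DES (1.06%) and 12 had a called interaction, all higher (1.27%). The study chose both lists on these calcium and control libraries, so they are not independent evidence of a direction.

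Of this kind were also 4 of 16 tested heat shock genes, against 58 of all 14775 genes tested. HSPA6, a stress-inducible HSP70, had an FPKM of 0.248, 0.26 and 0.128 in the control and 6.56, 16.2 and 4.6 with calcium. With DES it was 1262, 993 and 644, and with both 898, 501 and 1109. Its effect of calcium was 4.71 ± 0.44 without and -0.23 ± 0.44 with DES, where the groups overlapped. The 4 that rose with calcium without DES (5.74% of all genes tested) were HSPA6, HSPB1, HSPA1A and HSPA1B. All 4 had a called interaction, lower with DES (2.47%), and 0 of the 16 were called with DES (1.06%). The median effect of calcium without DES over the list was 0.38. HSPA1A and HSPA1B are near-identical copies among which reads may be split. The small heat shock protein HSPB1 had means of 71.8, 586, 1155 and 989. PPP1R15A, which restarts translation after stress, had means of 6.36, 44, 155 and 151, and GADD45A, a growth arrest gene, 13, 32.5, 90.8 and 92.2. DUSP10 and DUSP8, phosphatases of stress-activated kinases, had means of 4.12, 16.5, 37 and 34.8, and of 5.96, 20.4, 47.5 and 37.1.

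Of 23 tested immediate early and AP-1 genes, 20 rose with calcium without DES (5.74% of all genes tested) and 2 with DES (0.149%), and 14 had a called interaction, all lower (2.47%). The median effect was 2.49 without and 0.32 with DES. ATF3, a stress-induced transcription factor, had means of 1.92, 115, 41.1 and 42.6 (interaction -5.48 ± 0.70, limma, adjusted p = 0.0037). NR4A1, an orphan nuclear receptor, had 1.05 to 1.77 in the control, 35.3 to 87.7 with calcium, 8.33 to 10.2 with DES and 13.8 to 31.5 with both. Its groups with DES did not overlap, although the effect there was not called (1.20 ± 0.35, limma, adjusted p = 0.12). KLF4 was the only gene of the qPCR panel to pass the filter. This pluripotency factor had means of 5.59, 31.9, 10.9 and 13.4, and its interaction (-2.28 ± 0.48, limma, adjusted p = 0.029) was called in 6 of 12 fits with one library left out. Of 16 tested feedback genes of MAP kinases 8 rose with calcium without DES (5.74% of all genes tested), 0 were called with DES (1.06%), and 5 had a called interaction, all lower (2.47%). DUSP1, whose promoter is shown above, had 2.39 to 10.5 in the control, 61 to 99.1 with calcium, 36.9 to 65.5 with DES and 65.9 to 84.5 with both. ERRFI1, an inhibitor of the EGF receptor, had means of 21.2, 207, 25.2 and 52.1 and a call in 4 of those fits. Its libraries with both (33.7 to 80.4) lay above those with DES alone (16.5 to 30.1), although the effect with DES was not called.

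Of 15 listed targets of the co-activator YAP and matricellular genes 11 were tested, so the filter limits these counts too. Among the 11, 4 rose (5.74% of all genes tested) and 1 fell (3.6%) with calcium without DES. With DES 0 were called (1.06%), and the interaction was lower in 5 (2.47%) and higher in 1 (1.27%). CYR61, a secreted integrin ligand, had an FPKM of 7.32 to 11.9 in the control, 108 to 237 with calcium, 32.4 to 42.6 with DES and 30.9 to 56.1 with both (interaction -4.04 ± 0.42, limma, adjusted p = 0.0022). CTGF, its relative, had 0, 1 and 4 fragments in the control and a mean FPKM of 3.65 with calcium, 0.952 with DES and 1.1 with both. NOV, of the same family, had means of 0.857, 22.9, 4.91 and 4.66, and PALLD, an actin-bundling protein, 1.25, 13.4, 2.01 and 2.5. The PALLD libraries with both (2.11 to 2.89) lay just above those with DES alone (1.87 to 2.09). Of 29 listed TGF-beta, BMP and Notch genes 22 were tested. Among these, 6 rose (5.74% of all genes tested) and 3 fell (3.6%) with calcium without DES. With DES 0 were called (1.06%), and 3 had a called interaction, all lower (2.47%). These were DLL4, SMAD3 and the ligand TGFB2. TGFB2 had means of 0.0666, 7.58, 0.361 and 0.735 and a call in 4 of 12 fits with one library left out. It passed the filter through its calcium libraries, so no count over the list is read. Its libraries with both (0.574 to 1.01) lay above those with DES alone (0.172 to 0.466). CDH1, the gene of E-cadherin, had 4.9 to 5.12 in the control, 8.91 to 12 with calcium, 17.5 to 22.8 with DES and 13.3 to 15.7 with both (interaction -1.55 ± 0.22, limma, adjusted p = 0.0055).

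Genes of innate immunity and of the cytoskeleton were examined in 3 lists chosen after values were seen, so their counts are a description beside 5.74% of all genes tested that rose with calcium without DES and 2.47% with a lower interaction. Of 38 tested genes of antigen presentation and the interferon response, 32 rose with calcium without DES, 0 were called with DES, and 15 had a called interaction, all lower. The median effect was 1.82 without and 0.07 with DES. IRF1, a transcription factor of that response, had an FPKM of 0.388 to 0.484 in the control, 1.52 to 2.84 with calcium, 2.89 to 4.04 with DES and 1.49 to 2.35 with both, where the last lay below DES alone (interaction -3.04 ± 0.40, limma, adjusted p = 0.0041). NLRC5, the activator of MHC class I genes, had means of 0.542, 5.93, 1.96 and 1.09, and GBP2, a guanylate-binding protein, 1.64, 10.7, 4.73 and 4.34. ISG15, a ubiquitin-like product of interferon, had 358, 161 and 46.2 in the control and 1861, 1637 and 791 with calcium, and its interaction was not called (limma, adjusted p = 0.142).

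Of 25 tested genes of the NF-kB pathway, the next of these lists, 12 rose with calcium without DES (5.74% of all genes tested), 0 were called with DES, and 13 had a called interaction, all lower (2.47%). TNFAIP3 had 11, 4 and 2 fragments in the control, and an FPKM of 1.31 to 7.98 with calcium, 4.43 to 5.63 with DES and 1.35 to 2.72 with both (interaction -5.52 ± 0.76, limma, adjusted p = 0.0047). TLR2, a receptor for bacterial lipoproteins, had means of 0.14, 6.81, 0.203 and 0.368, and RELB, an NF-kB subunit, 0.533, 5.15, 2.76 and 2.37. Their interactions were called in 5 and 3 of 12 fits with one library left out. Of 29 tested actin cytoskeleton genes and targets of serum response factor, the last of them, 19 rose with calcium without DES, 0 were called with DES, and 12 had a called interaction, all lower, beside the same shares of all genes. ZYX, a focal adhesion protein, had 14.5, 13.2 and 21.2 in the control, 63.4, 84.1 and 66 with calcium, 25.2, 23.9 and 31.4 with DES and 23, 27.4 and 26 with both (interaction -2.21 ± 0.28, limma, adjusted p = 0.0037). The non-muscle myosin MYH9 had means of 108, 341, 119 and 122, and the tropomyosin TPM1 4.92, 10.6, 14.3 and 11.7.

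The lost falls included genes of DNA replication. The 141 lost falls were as few as 31 with one library left out (control replicate 1) and 10 in the fit over all 21 libraries. Of the 47 tested genes of that list 43 fell with calcium without DES (3.6% of all genes tested), 0 were called with DES (1.06%), and 27 had a called interaction, all higher (1.27%) and all lost. The median effect was -1.72 without and 0.01 with DES, against -0.01 and -0.00 over all genes tested. MCM2, a subunit of the replicative helicase (chr3:127598223-127622436, plus strand), had an FPKM of 30.6, 42.8 and 20.6 in the control, 5.38, 6.7 and 2.88 with calcium, 32.2, 24.8 and 25.5 with DES and 28.7, 15.3 and 27.4 with both. Only the calcium libraries were low. The effect of calcium was -2.65 ± 0.35 without and -0.25 ± 0.35 with DES (interaction 2.40 ± 0.49, limma, adjusted p = 0.026), and the interaction was called in 6 of 12 fits with one library left out.

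TK1, the thymidine kinase of S phase, had an FPKM of 90.1, 119.7 and 94.4 in the control, 21.3, 30.7 and 20.8 with calcium, 123, 99.9 and 119 with DES and 145, 117 and 163 with both. Its interaction (2.38 ± 0.28, limma, adjusted p = 0.0025) was called in all 12 fits with one library left out. CDT1 and CDC6, whose promoters are shown above, had means of 27.1, 5.08, 25.2 and 20.4, and of 6.57, 1.29, 6.75 and 6.49, and both were called in all 12 fits. GINS2, of the replicative helicase, had means of 8.8, 2.1, 7.23 and 10.9, and RRM2, of ribonucleotide reductase, 37.8, 7.98, 27.8 and 45.2. FEN1, a flap endonuclease, was low in all 3 treated groups, with means of 34.7, 8.44, 11.2 and 11.9, and E2F2, an E2F factor, had 9.92, 1.57, 3.46 and 3.56. RRM2 and E2F2 were each called in 5 of the 12 fits. Of the 141 lost falls, DES alone moved 10 (7.09%) by at least 0.75 times the effect of calcium and 100 (70.9%) by under 0.25 times or the other way.

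**Figure D3:**
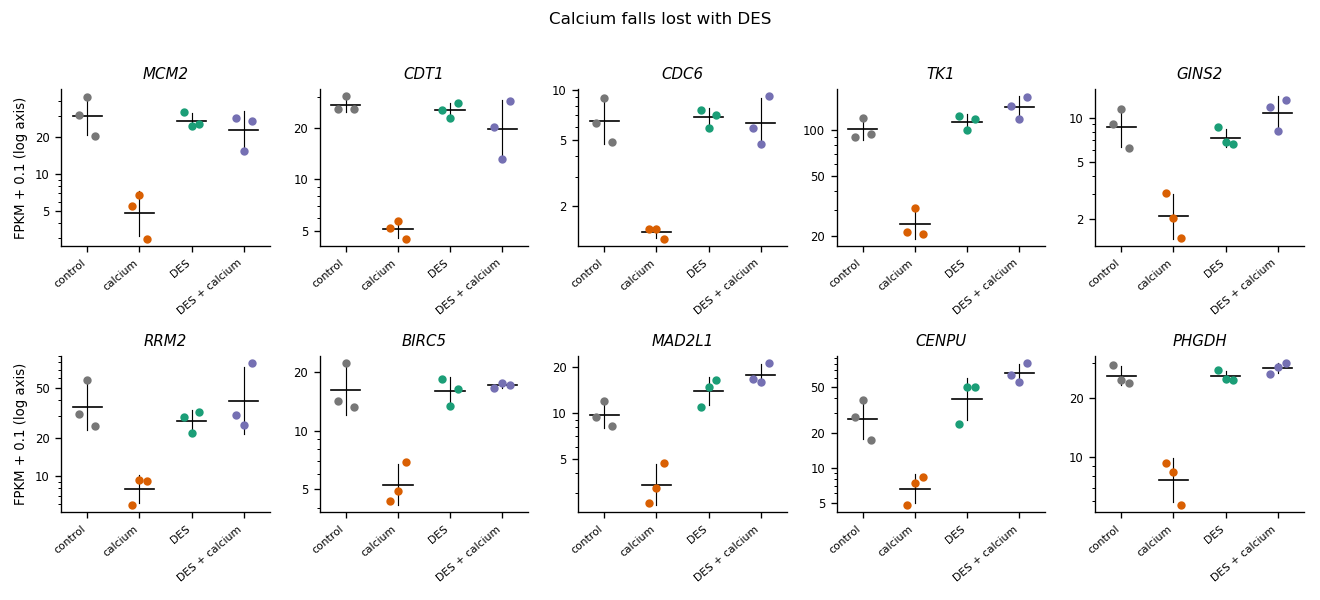
FPKM + 0.1 on a log axis for 10 lost falls, each point a library, each bar the mean of the logarithms and each vertical line 1 SD either side (n = 3). In each panel the 3 calcium libraries lie below all libraries of the other groups, and the groups with DES overlap except for CENPU, where DES with calcium is the higher.

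Of 35 tested genes of G2/M and mitosis, 19 fell with calcium without DES (3.6% of all genes tested) and 1, PLK1, with DES (0.907%), and 5 had a called interaction, all higher (1.27%). The median effect was -1.25 without and 0.19 with DES. BIRC5 (survivin) had means of 16.5, 5.26, 16 and 17, and MAD2L1, of the spindle checkpoint, 9.68, 3.39, 13.9 and 17.8. The checkpoint kinase BUB1B had 15.8, 5.39, 12.3 and 15.4, and the kinesin KIF2C 17.6, 6.03, 20.6 and 18.7, each with an interaction called in 4 of 12 fits with one library left out. CENPU, of the kinetochore, had 27.4, 38.2 and 17.2 in the control, 4.64, 7.22 and 8.26 with calcium, 24.1, 50.5 and 50.2 with DES and 63.1, 55.8 and 81.2 with both (interaction 2.73 ± 0.49, limma, adjusted p = 0.016). PBK, a mitotic kinase, had means of 10.2, 2.22, 8.7 and 12.6. Of 19 tested CDK inhibitors and growth arrest genes 7 rose (5.74%) and 2 fell (3.6%) with calcium without DES, 1 rose (0.149%) and 2 fell (0.907%) with DES, and 5 had a called interaction, all lower (2.47%). CDKN1A, the inhibitor p21, had 7.48 to 12.6 in the control, 57.9 to 129 with calcium, 13.7 to 35.9 with DES and 24 to 36.8 with both, and its interaction was called in 6 of 12 fits with one library left out.

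PHGDH, the first enzyme of serine synthesis, was a lost fall with 29.3, 24.6 and 23.8 in the control, 9.24, 8.27 and 5.59 with calcium, 27.7, 25 and 24.6 with DES and 26.6, 28.7 and 29.96 with both (interaction 1.90 ± 0.26, limma, adjusted p = 0.0042). MTHFD2, of mitochondrial folate metabolism, had means of 39.4, 19.6, 64.3 and 80.6. Both are on the list of the integrated stress response, of which 3 of 19 tested genes rose (5.74% of all genes tested) and 3 fell (3.6%) with calcium without DES, 0 were called with DES (1.06%), and the interaction was higher in 2 (1.27%) and lower in 1 (2.47%). SORD, sorbitol dehydrogenase, had means of 37.9, 15.6, 45.7 and 46.7 and was called in 3 of 12 fits with one library left out.

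**Figure D4:**
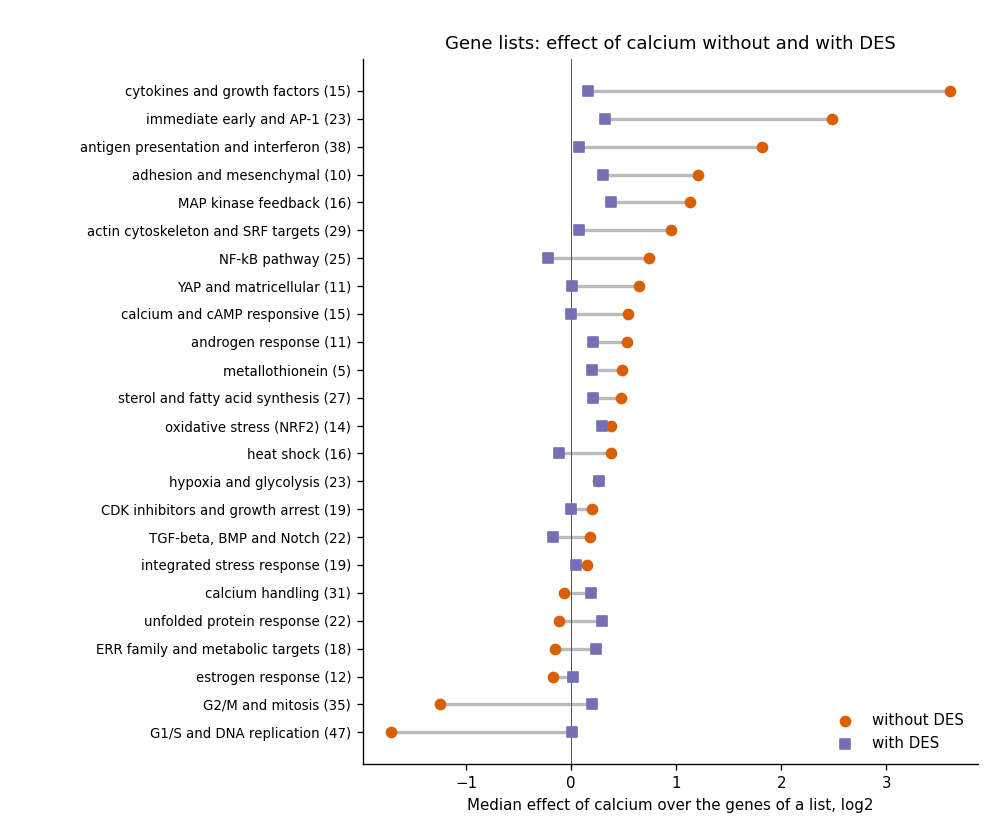
Median effect of calcium on the log2 scale over the tested genes of each list, without DES (circles) and with DES (squares), with the number of genes in parentheses. The immediate early list stands at 2.49 without and 0.32 with DES and the G1/S list at -1.72 and 0.01. The values of some lists cover only the genes past the filter. These are 15 of 26 for cytokines, 15 of 23 for calcium and cAMP, 11 of 15 for YAP, 22 of 29 for TGF-beta and 10 of 24 for adhesion. The NF-kB, interferon and actin lists were chosen after values were seen.

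In the other lists the called interactions were counted as follows, against 3.74% of all genes tested, and no list is said to differ from the rest. It was 0 of 18 tested genes of the estrogen-related receptors and their metabolic targets, 0 of 12 of the estrogen response, 0 of 22 of the unfolded protein response, 0 of 14 of the oxidative stress response and 0 of 5 of a list of metallothioneins and the zinc transporter SLC30A1. It was 1 of 11 androgen response genes (SORD), 1 of 31 genes of calcium handling (S100A6), 1 of 27 sterol and fatty acid genes, 1 of 15 luminal markers (CDH1) and 2 of 23 hypoxia and glycolysis genes (PFKP and ADM). It was 3 of 10 tested adhesion genes, CDH1 and LAMB3 among them. Of the adhesion genes 24 were listed, and the filter favours those high in the calcium libraries, so this count is not read. A missed call does not show equal effects, since the median SE of an interaction was 0.40 on the log2 scale.

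The 9 kept responses were 4 rises and 5 falls. FOS (chr14:75278774-75282230, plus strand), the partner of JUN in AP-1, had an FPKM of 0.392, 0.512 and 0.355 in the control, 97.9, 277 and 116 with calcium, 19.9, 9.32 and 4.47 with DES and 135, 173 and 88.4 with both. Calcium stood above its comparison group in both settings, and its levels with and without DES overlapped. The effect was 8.15 ± 0.50 without DES and 3.75 ± 0.50 with DES (limma, adjusted p = 0.01), and the interaction was called too (-4.41 ± 0.70, limma, adjusted p = 0.0094). FOSB, its paralog, had means of 0.224, 29.2, 0.842 and 9.13, with effects of 6.32 ± 0.49 and 3.28 ± 0.49, and shares 7185 bases with ERCC1 on the opposite strand. SAT1, the enzyme that acetylates polyamines for their breakdown, had means of 14.4, 142, 86.3 and 231, with effects of 3.29 ± 0.25 and 1.39 ± 0.25. By the interaction, the rises of FOS, FOSB and SAT1 were smaller with DES on the log2 scale, a call that stood in 12, 4 and 10 of the 12 fits with one library left out. PLK3, a stress-responsive polo-like kinase, had 1.56 to 2.5, 12.2 to 27.9, 2.09 to 3.73 and 9.93 to 21.6, with effects of 3.07 ± 0.38 and 2.21 ± 0.38 and no called interaction (-0.86 ± 0.54).

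Among the kept falls, CISH, a feedback inhibitor of cytokine receptors, had 11, 11.7 and 16 in the control, 5.54, 5.27 and 5 with calcium, 9.52, 11.8 and 14.7 with DES and 4.25, 3.43 and 6.16 with both. Its effects were -1.26 ± 0.24 and -1.38 ± 0.24, and neither setting had overlapping groups. PLK1, the mitotic polo-like kinase, had means of 18.8, 11.4, 23.9 and 12.3, and EPN3, an adaptor of endocytosis, 33.8, 21.6, 47 and 22.6. MED20, a Mediator subunit, had 5.42, 3.17, 9.56 and 5.94, and THRA, a thyroid hormone receptor, 1.75, 0.886, 3.44 and 1.31. Over these 5 the interaction ranged from -0.42 to 0.08 and was not called. In a fit of only the 6 libraries given DES, none of the 9 kept responses was called. The 9 kept responses were 3 and 4 without control replicates 1 and 2, 34, 0 and 2 without DES replicates 1, 2 and 3, and 1 without DES and calcium replicate 2.

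The 4 reversed responses were BBC3, GADD45B, AC108010.1 and LSM5. BBC3 (chr19:47220822-47232766, minus strand), which encodes the pro-apoptotic protein PUMA, had an FPKM of 1.74, 1.65 and 2.44 in the control, 5.83, 8.06 and 5.83 with calcium, 31.8, 35.2 and 56.2 with DES and 19.2, 15.9 and 19.2 with both. Calcium raised it without DES (1.71 ± 0.24) and lowered it with DES (-1.14 ± 0.24), in groups that did not overlap, as in 29.4% and 20% of all genes tested (interaction -2.85 ± 0.33, limma, adjusted p = 0.0025). GADD45B, of the same family as GADD45A, had 3.39, 3.83 and 3.54, then 9.37, 20.01 and 10.03, then 56.4, 56.3 and 74.4, then 21.5, 19.3 and 28.6, with effects of 1.76 ± 0.27 and -1.43 ± 0.27. In both genes DES alone was the highest group and DES with calcium still lay above calcium alone in mean. AC108010.1 had means of 2.86, 4.92, 12.4 and 5.33 and shares 41220 bases with AC090114.3 on the same strand. LSM5, a subunit of an RNA-binding ring, ran the other way, with 5.46, 6.27 and 6.62, then 3.89, 4.21 and 4.68, then 7.41, 8.25 and 7.5, then 13.5, 13.4 and 14.3, and effects of -0.51 ± 0.14 and 0.82 ± 0.14 (interaction 1.33 ± 0.20, limma, adjusted p = 0.0072). The interaction of all 4 was called in all 12 fits with one library left out, but the pair of effects was not. In a fit of only the 6 libraries given DES, the effect with DES was called in none of the 4. The number of reversed genes was 1, 0 and 0 without control replicates 1, 2 and 3, 2 and 2 without calcium replicates 1 and 2, 21, 0 and 1 without DES replicates 1, 2 and 3, and 1 and 1 without DES and calcium replicates 1 and 2.

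**Figure D5:**
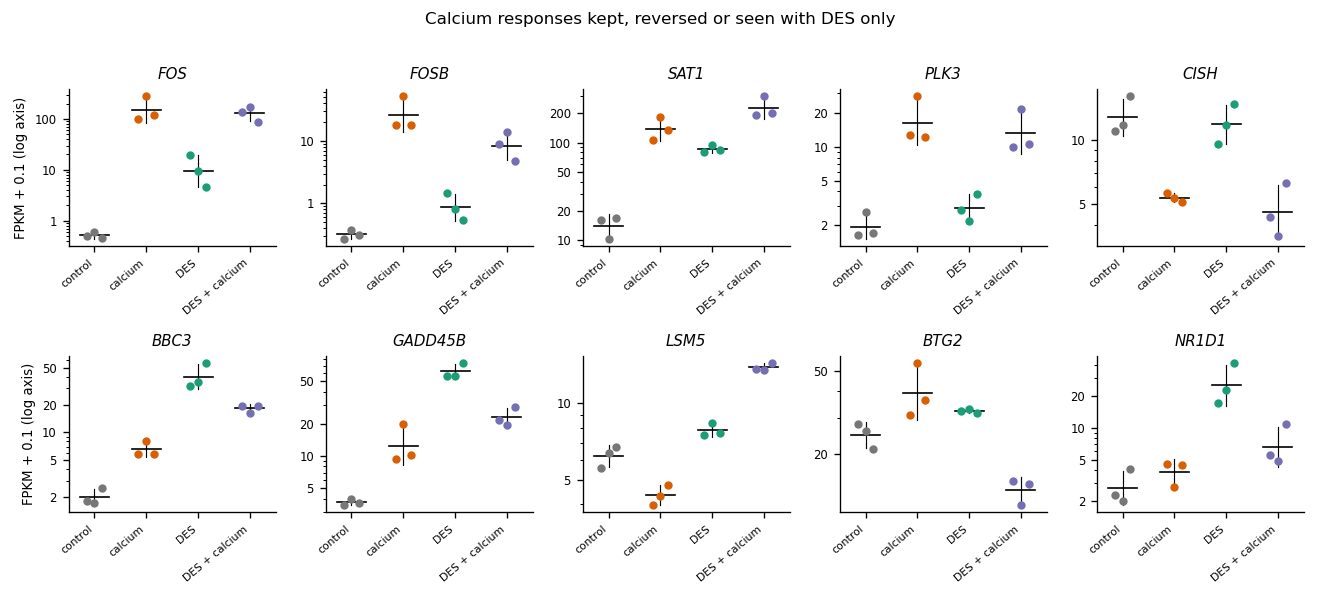
FPKM + 0.1 on a log axis for 5 kept responses (upper row), and for 3 reversed responses and 2 called with DES only (lower row), each point a library, each bar the mean of the logarithms and each vertical line 1 SD either side (n = 3). FOS stands at 4.47 to 19.9 with DES and at 88.4 to 173 with DES and calcium, while BBC3 stands at 31.8 to 56.2 and at 15.9 to 19.2.

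In 81 genes, the 4 reversed ones included, the interaction was called and the effect with DES was opposite and at least 0.5 times in size. The 53 of them that rose without DES had a median FPKM of 4.59 in the control, 10.3 with calcium, 12.4 with DES and 7.01 with both. The 28 that fell without DES had medians of 8.89, 5.03, 8.66 and 14.2. In 77 of the 81 the opposite direction itself did not pass the test.

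In 53 other genes calcium was called with DES only and the interaction was called as well, with 11 rises and 42 falls. BTG2, an antiproliferative gene, had an FPKM of 27.8, 25.7 and 21.1 in the control, 30.6, 54.7 and 36.3 with calcium, 32.3, 32.9 and 31.6 with DES and 14.8, 11.3 and 14.3 with both. Its effect was 0.67 ± 0.21 without DES (limma, adjusted p = 0.068) and -1.26 ± 0.21 with DES (limma, adjusted p = 0.023). NR1D1, a clock repressor, had means of 2.7, 3.78, 27.4 and 7 and shares 1081 bases with THRA on the opposite strand, and its interaction was called in 3 of 12 fits with one library left out. FZD5, a Wnt receptor, had means of 1.01, 1.98, 4.25 and 1.03. RHOA-IT1, which lies within RHOA on the same strand, had 1.2, 2.27 and 2.22 with DES and 0, 0.179 and 0 with both.

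Of the 11 that rose, AK6, an adenylate kinase, had means of 8.01, 10.3, 2.91 and 8.26 and shares 5271 bases with TAF9 on the same strand. MPHOSPH6, a cofactor of the RNA exosome, had 40.4, 27.6, 18.8 and 37.2, and HS6ST2, a heparan sulfate sulfotransferase, 13.8, 12, 6.03 and 12. In these 3 the mean was lowest with DES alone, and the interactions of AK6 and HS6ST2 were called in 5 and 4 of 12 fits with one library left out. CETN3, a centrin, had 3.71, 2.87, 2.87 and 6.69, and RIDA, an imine deaminase, 5.12, 3.3, 4.57 and 10.2, where the mean was highest with both. Of the 53 genes 12 were under 200 bases long, 11 of them among the falls. MIR3936, of 110 bases, had 18, 8 and 19 fragments with DES and 0, 0 and 0 with both, where a count of 0 allows up to 3 fragments. In a fit of only the 6 libraries given DES, it alone of the 10 genes named here kept its call. The 53 were 14 and 14 without control replicates 1 and 2, 25 without calcium replicate 1, 168, 7 and 5 without DES replicates 1, 2 and 3, and 28 and 17 without DES and calcium replicates 1 and 2.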

How the data were processed

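RNA-seq of MDA-MB-453 cells was analysed in 12 libraries, 3 each of control, calcium, DES, and DES and calcium. The authors deposited FPKM values per gene with gene lengths. The submitters' processing notes name HISAT2 2.0.5, featureCounts 1.5.0-p3 and GRCh38.p14. FPKM multiplied by length was a whole multiple of 1 step in 100% of values (tolerance 0.01 of a fragment), which gave back the fragments. The library size behind the FPKM was 0.862 to 1.15 times the fragments on genes.

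Log2(FPKM + 0.1) of genes with a mean of at least 0.5 was fitted with limma 3.58.1 in R 4.3.3 (lmFit, eBayes with a trend), all 4 groups in one fit. P-values are two-sided and Benjamini-Hochberg adjusted over all genes tested, with a threshold of 0.05. Fold changes on this scale understate those of low genes. The fit was tested on simulated data. Alternatives were another pseudocount, filter, scaling, set of libraries, weights, a replicate block, limma-voom on the fragments, and leaving out each library.

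The genes, lists and tests were chosen with earlier results of these data known. Named genes are, at a mean FPKM of at least 1 and a length of at least 200 bases, the 10 largest interactions in each direction and the 5 largest effects of each class and direction, with the 4 smallest interaction p-values of each list and the genes measured by qPCR. IRF1, NLRC5, TLR2, GBP2, RELB, ZYX, MYH9, TPM1, ISG15 and MIR3936 were chosen after their values were seen. Some genes the rule names are not reported here. Of 94 genes whose effects are given, 29 share bases with another gene tested, 24 of them on the opposite strand, and are uncertain.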

Additional observations from a re-analysis of the deposited data

Results flagged for a closer look

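The effect of calcium differed with and without DES in 552 genes by the test of the interaction (limma, Benjamini-Hochberg adjusted p under 0.05). The values below are interactions on the log2 scale, and no explanation of them was tested. Among kept rises the interaction was FOS -4.41, FOSB -3.04 and SAT1 -1.90, and among reversed responses BBC3 -2.85, GADD45B -3.19, AC108010.1 -1.97 and LSM5 1.33.

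Among lost rises of secreted factors, receptors and signalling genes it was LIF -7.44, AC004264.1 -7.46, AREG -5.57, ADM -4.18, PTHLH -3.75, RASD1 -6.09, GEM -4.93, TRIB1 -2.76, RCAN1 -1.71 and F2RL1 -5.45. AC004264.1 had 0 fragments in each control library and GEM 2 or 3, so both values depend on the pseudocount. In transcription factors and MAP kinase feedback genes it was JUN -3.20, ATF3 -5.48, NR4A1 -3.95, KLF6 -3.10, KLF4 -2.28, DUSP1 -3.40, DUSP10 -2.09, DUSP8 -2.22 and ERRFI1 -2.29. Matricellular, adhesion and TGF-beta or Notch genes had CYR61 -4.04, CTGF -4.47, NOV -4.42, PALLD -2.97, DLL4 -4.86, TGFB2 -4.26, SMAD3 -1.29, LAMB3 -3.90 and CDH1 -1.55, and the calcium-binding gene S100A6 had -3.35. The control libraries of CTGF held 0, 1 and 4 fragments, so its value depends on the pseudocount too. Stress, arrest and metabolic genes had HSPA6 -4.94, HSPB1 -3.17, HSPA1A -2.06, HSPA1B -2.45, PPP1R15A -2.80, GADD45A -1.32, CDKN1A -2.55 and PFKP -1.40. TNFAIP3 had -5.52, and the lost rises chosen after their values were seen had IRF1 -3.04, NLRC5 -4.08, TLR2 -4.10, GBP2 -2.84, RELB -3.34, ZYX -2.21, MYH9 -1.64 and TPM1 -1.38.

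Among lost falls, replication genes had MCM2 2.40, CDT1 2.03, CDC6 2.12, DTL 2.45, EXO1 2.44, E2F2 2.53, TK1 2.38, RRM2 2.70, GINS2 2.61, FEN1 2.04 and WDHD1 2.63. Mitotic and meiotic genes had BIRC5 1.72, MAD2L1 1.87, BUB1B 1.88, KIF2C 1.39, CENPU 2.73, PBK 2.81, KIF15 2.75 and MND1 2.72, and other genes PHGDH 1.90, MTHFD2 1.33, SORD 1.36, RIBC2 2.31, PRRT1B 2.89 and GNG13 3.24. Genes called with DES only had BTG2 -1.93, NR1D1 -2.45, FZD5 -2.80, RHOA-IT1 -4.70, AK6 1.13, HS6ST2 1.16, CETN3 1.56, MPHOSPH6 1.57 and RIDA 1.81. RHOA-IT1 had 0, 2 and 0 fragments with DES and calcium, so its value depends on the pseudocount. MIR3936, also called with DES only and chosen after its values were seen, had -7.16, a fitted value that depends on the pseudocount because all 3 libraries with DES and calcium were at 0 fragments.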

How the results depend on the processing

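Of 2679 effects of named genes recomputed, 2189 kept their call, 490 lost it and 0 changed direction. The loss was uneven: 55 of 111 in the fit over all 21 libraries, 41 of 111 without a filter and 333 of 1332 with one library left out. Most of these genes were named for large or low-p effects, so the pooled share does not describe other genes. List medians were not recomputed. The median interaction over all genes tested was -0.03 as reported, 0.11 with quantile scaling, 0.05 at a mean FPKM of at least 2, 0.00 with median-ratio scaling and -0.22 without a filter. A pseudocount of 1 gave 280 calcium responses with DES, 15 kept and 86 with DES only. Without a filter there were 227 interactions, 143 lost, 4 kept, 0 reversed and 35 with DES only. Quantile scaling gave 89 responses with DES, and moved the interactions to 290 higher and 362 lower, 44.5% higher against 33.9%. Scaling by total fragments gave 257 responses with DES and 30 kept. Without DES it gave 684 rises and 780 falls with calcium, against 848 and 532 as reported. One fit over all 21 libraries gave 183 interactions (19 higher), 758 responses without DES, 114 lost, 0 reversed and 29 with DES only. Weights per library gave 2602 interactions, 3028 responses without and 2009 with DES, 1137 lost, 236 kept, 156 reversed and 722 with DES only. Limma-voom on the fragments gave 245 responses with DES and 34 kept, and 766 rises and 856 falls with calcium without DES. A fold of at least 1 on the log2 scale left 5 kept and 2 reversed, and a fit of only the 6 libraries given DES gave 22 responses, and of 23 named effects with DES only that of MIR3936 kept its call. With one library left out, interactions ranged from 167 to 830, responses without DES from 699 to 1549 and with DES from 8 to 565, lost from 112 to 413, kept from 0 to 34, reversed from 0 to 21 and with DES only from 5 to 168. The cause of these moves was not tested.

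Replicate numbers were not used as pairs, and whether they mark shared handling cannot be told. Over 18 pairs of equal number the correlation of deviations from the group means ranged from -0.0772 to 0.271. It was over 0.1 in 5. For 7 of the 12 libraries the best match in another group had their own number. With a replicate block there were 8 reversed responses, 638 interactions, 1438 responses without and 109 with DES, 406 lost, 8 kept and 45 with DES only.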
